A study of Mus musculus with 36 samples.

Results

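The loci of Shh, Gli3, Hand2, Grem1 and Alx4, 5 genes that set the anterior-posterior axis of the limb bud, were examined for open chromatin in the skeleton of the later hand and foot. Peaks of 12 lists were merged into regions where they shared at least 1 bp. The members were all regions that overlapped 1 of the 5 genes or the 200 kb on either side of it, plus all of Lmbr1 for Shh. They came to 114 of the 65543 regions of the series, with 10 at Shh, 34 at Gli3, 24 at Hand2, 16 at Grem1 and 30 at Alx4. The assay was ATAC-seq: a transposase inserts adapters where DNA is accessible, and the fragments it frees are sequenced. The tissue was chondrocytes of the autopod (hand and foot) from E15.5 embryos of the FVB/NJ mouse strain. The 36 libraries formed 12 groups of 3, and each group was 1 limb, 1 element and 1 digit. Hand groups were metacarpal I, III and V and hand phalanges I, III and V, and foot groups were metatarsal I, III and V and foot phalanges I, III and V. Metacarpals and metatarsals are called metapodials, and above and below a gene mean higher and lower coordinates. All groups shared the strain and the age, and no mutant or treated group was compared. Tissue was dissected, and each library pooled right and left elements of 3 to 5 embryos of the same litter, so no value belongs to 1 animal. The files hold 1 list per group, made from its pooled libraries, so each value below comes from a single list, and every SD and test is over lists.

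In the early limb bud, Sonic hedgehog (Shh) is secreted from a small posterior domain, the zone of polarizing activity, and sets the number and identity of digits. Gli3 is the zinc-finger transcription factor that represses Hedgehog targets where the signal is absent, mainly in the anterior bud. Hand2, a basic helix-loop-helix factor of the posterior bud, activates Shh, and Alx4, a paired-type homeodomain factor of the anterior bud, keeps Shh from being switched on there. Grem1 (gremlin 1) is a secreted inhibitor of BMPs that links the posterior Shh signal to the FGFs of the apical ridge. The limb enhancer of Shh, known as the ZRS, lies in an intron of Lmbr1, far from Shh itself. Parts of the Grem1 limb enhancers lie in the neighbouring gene Fmn1. No limb bud samples were analysed here, so the lists show what was open at E15.5 and not whether it had been open earlier.

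Open chromatin covered an end of Gli3, Hand2, Grem1 and Alx4 in every list, while at Shh itself the stretches covered in all lists lay inside the gene. For the 3 members with an entry in the RefSeq promoter table (GRCm38.p6), the 250 bases before the start site are shown, because every base of them lay inside a peak in all 12 lists. They lie at chr13:15463473-15463722 on the plus strand (Gli3), chr8:57320733-57320982 on the plus strand (Hand2) and chr2:113758649-113758898 on the minus strand (Grem1). Capitals mark matches to the motifs listed after them, read 5′ to 3′:
Gli3: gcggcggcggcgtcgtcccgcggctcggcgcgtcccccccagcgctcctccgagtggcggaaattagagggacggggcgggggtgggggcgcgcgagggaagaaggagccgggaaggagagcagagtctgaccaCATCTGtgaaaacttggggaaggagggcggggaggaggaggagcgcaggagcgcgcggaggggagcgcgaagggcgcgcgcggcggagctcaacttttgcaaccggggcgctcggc
Hand2: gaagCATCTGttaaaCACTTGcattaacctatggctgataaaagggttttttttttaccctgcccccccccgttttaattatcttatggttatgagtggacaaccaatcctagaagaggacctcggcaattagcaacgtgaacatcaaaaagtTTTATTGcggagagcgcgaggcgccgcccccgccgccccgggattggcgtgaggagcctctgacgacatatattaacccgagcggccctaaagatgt
Grem1: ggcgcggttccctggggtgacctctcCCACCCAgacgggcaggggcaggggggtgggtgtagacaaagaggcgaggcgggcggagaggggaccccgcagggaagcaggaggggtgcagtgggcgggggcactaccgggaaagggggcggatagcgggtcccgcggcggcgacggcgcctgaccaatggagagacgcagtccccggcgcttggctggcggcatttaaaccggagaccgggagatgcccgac
The motifs searched on both strands were the GLI motif GACCACCCA and its core CCACCCA, which the longer one contains, the E-box CANNTG bound by factors such as Hand2, and the HOX13 core TTTATTG, with no other overlap between them. The Gli3 promoter held 1 E-box, the Hand2 promoter held 2 E-boxes and a HOX13 core, and the Grem1 promoter held 1 GLI core. Over the 32851 promoters in the table, windows of the same length held an E-box in 66.2% of cases, a GLI core in 8.1%, a HOX13 core in 4.2% and the full GLI motif in 0.2%. The Gli3 and Grem1 windows were rich in G and C (72.8% and 72.0%), against a median of 52.4%, while the Hand2 window was at 49.2%. These matches describe letters only.

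The open region at each gene differed in breadth and in strength. At Gli3, a region of 14 kb (chr13:15459908-15473858, mm10) spanned the start site, and its best peak ranked between the top 2.0% and 5.5% of its list by the authors' p-value (median 2.7%). At Grem1, a region of 4.6 kb (chr2:113755911-113760479) held 1 peak in each list, ranked at 10.5% to 20.9% (median 14.2%), with its summit 51 to 102 bp before the start site. At Hand2, a region of 13.6 kb (chr8:57316930-57330563) ranked at 7.0% to 25.1% (median 12.2%), and its strongest summit lay 7750 to 7808 bp past the start site, outside the 3.5 kb gene, in all 12 lists. So at Hand2 the most significant point was not the promoter but a spot beyond the gene. At Alx4, the region of 11.1 kb (chr2:93639417-93650490) ranked at 20.9% to 44.0% (median 26.8%), and the covered part ran from 1.86 kb in metacarpal V to 10.9 kb in hand phalanges V. At Shh, the region of 10.3 kb (chr5:28457367-28467630) lay over most of the gene and held 2 peaks in every list, yet ranked lowest of the 5, at 30.0% to 59.8% (median 36.8%). Only its parts from 28457837 to 28459798 and from 28464206 to 28465617 were covered in all 12 lists. For comparison, the region at the start site of Lmbr1 ranked at 5.0% to 12.3%. Most of the 5 regions were wide for the series: those of Shh, Gli3, Hand2 and Alx4 were at the 98.2, 99.3, 99.2 and 98.5 percentile of all region widths, and that of Grem1 at the 85.5 percentile. All 5 regions were in all 12 lists, and such regions are wider (median 3668 bp, against 2360 bp for all regions). Among them, Shh, Gli3, Hand2 and Alx4 stood at the 95.4, 98.1, 97.9 and 96.2 percentile of width, and Grem1 at 67.4. Ranks describe each list by itself, since lists differ in length.

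**Figure D1:**
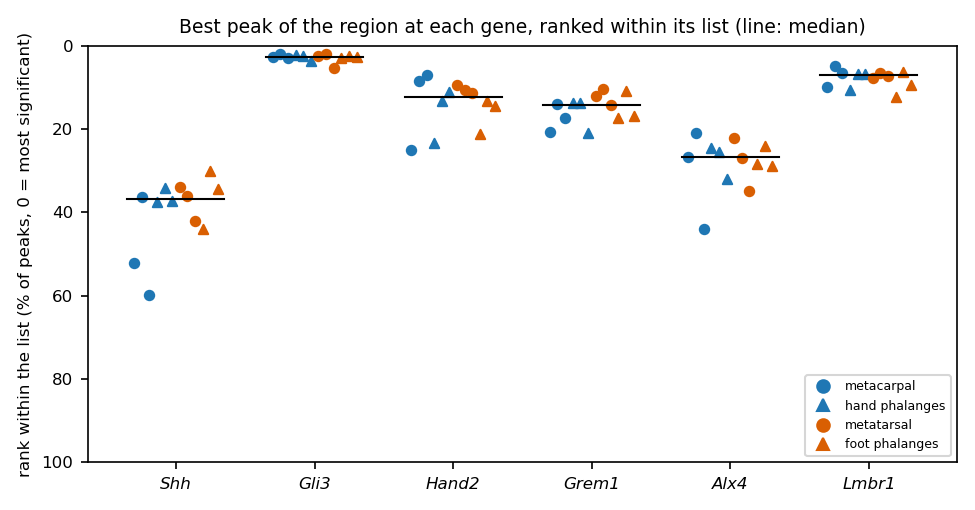
Rank of the best peak in the region at each gene, as a percentage of the peaks of its list ordered by significance (y axis, 0 is the most significant), for the 5 genes and Lmbr1 (x axis). Each symbol is 1 of 12 lists, colour marks the limb, shape the element, and the line is the median; Gli3 sits at 2.0% to 5.5% and Shh at 30.0% to 59.8%.

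Away from the gene ends, far fewer regions were shared by all lists. Of the 114 regions, 35 (30.7%) were called in all 12 lists, 9 in 10 or 11, 48 in 2 to 9 and 22 (19.3%) in only 1. Over the whole series, 35.6% of regions were in all 12 lists and 17.0% in 1. Within 1 kb of the end of a protein-coding gene, 15 of 16 regions of the 5 loci were in all lists (82.0% over the series). Of the other 98, called distal below, 20 were (20.4%, against 21.5% over the series). Each of the 35 shared regions had at least 1 stretch covered in every list, of 583 to 8436 bp in all (median 1814 bp). The share called in all lists was below the median gene at each locus: 45.8% at Hand2, 30.0% at Shh, 29.4% at Gli3, 25.0% at Grem1 and 23.3% at Alx4, against a median of 47.1% over the 16378 genes with at least 10 regions. In density, Alx4 (6.84 regions per 100 kb) and Hand2 (5.95) were above 94.5% and 86.2% of gene windows, Gli3 (5.1) and Grem1 (3.9) stood at the 74.5 and 51.4 percentile, and Shh (1.79) at 17.0. The distal regions in all lists were uneven too, with 9 of 33 at Gli3, 7 of 20 at Hand2, 3 of 25 at Alx4, 1 of 13 at Grem1 and 0 of 7 at Shh.

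**Figure D2:**
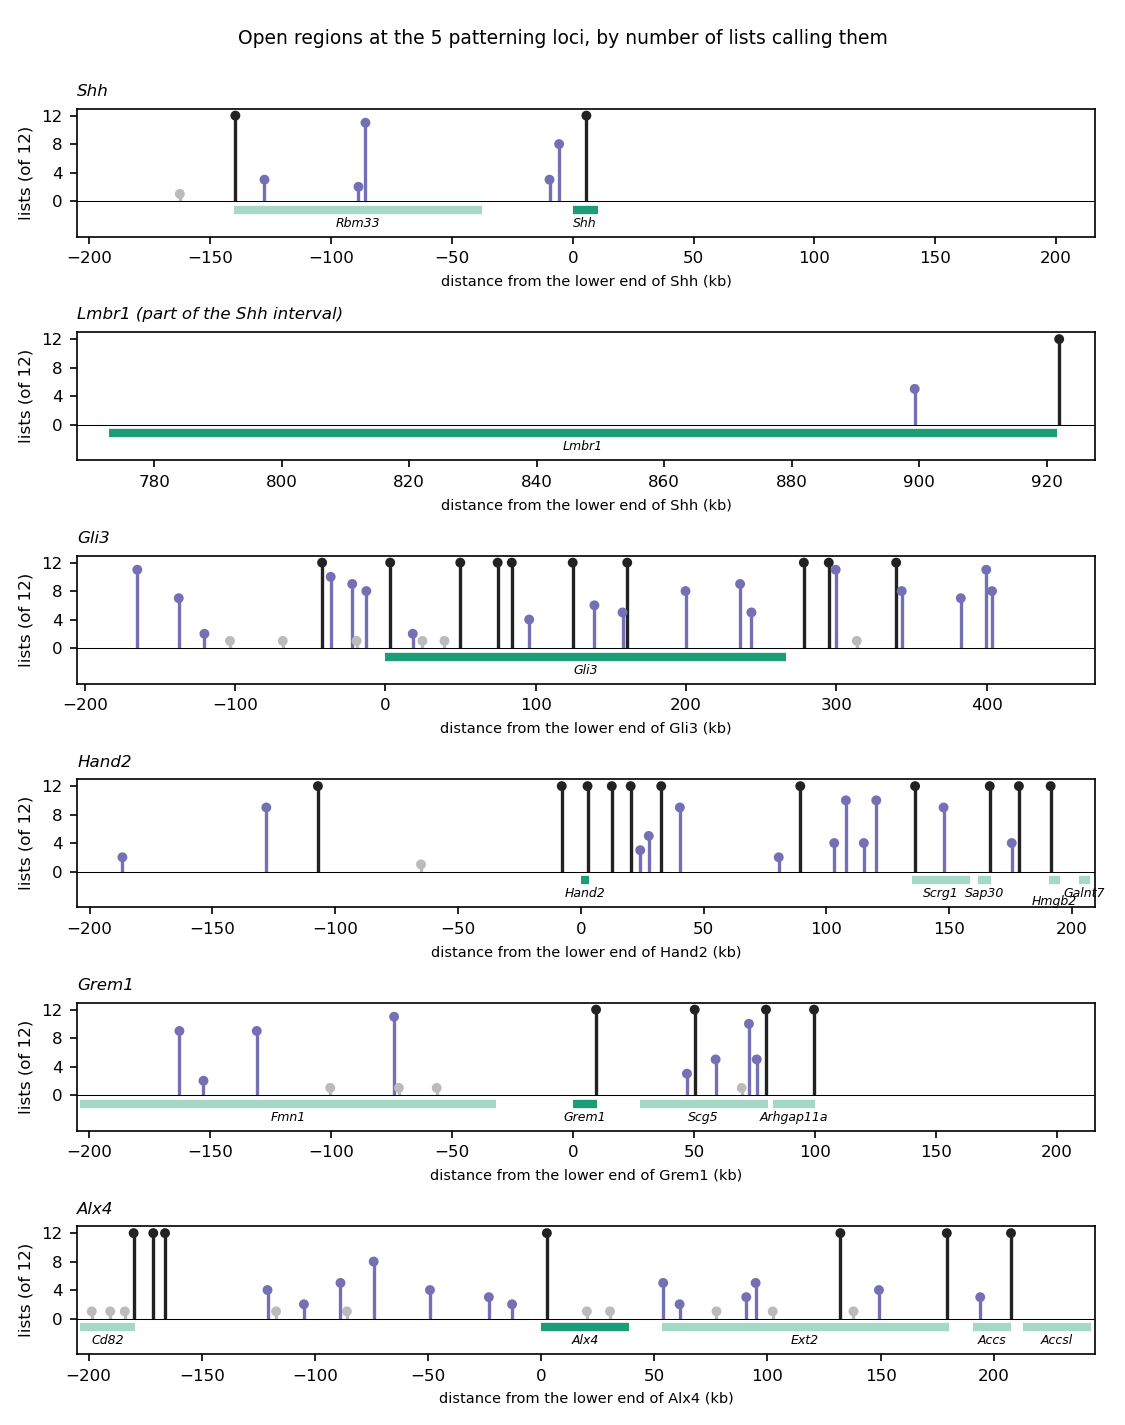
Position of each region as distance in kb from the lower end of the gene (x axis) and the number of lists that called it (y axis, of 12), for the 5 loci and for Lmbr1. Black stems are regions in all 12 lists, purple in 2 to 11 and grey in 1, and green bars are genes. The empty stretch above Shh and over most of Lmbr1 stands beside the many black stems of Gli3 and Hand2.

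The Shh interval was the emptiest of the 5. In the 200 kb above the gene no region had its centre, and only the region at the gene reached into it, up to 28467630. Of 558.9 kb examined, including Lmbr1, 10.2 to 18.5 kb were covered, in 4 to 7 regions per list (median 6). The other 2 regions in all lists were at gene ends: that of Rbm33, an RNA-binding protein gene, at chr5:28315052-28319457 (rank median 6.2%), and that of Lmbr1 at chr5:29376993-29380514 (7.1%). A distal region, in Rbm33 at chr5:28369732-28372445, was in 11 lists and missing from foot phalanges I. Closest to the gene lay chr5:28450137-28452313, 4.5 kb away from it, which was called in all 6 foot lists and in 2 of 6 hand lists, metacarpal III and hand phalanges I (exact permutation p = 0.125). This region and the one missing from foot phalanges I were picked after their calls were seen.

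Lmbr1, which holds the ZRS, had no peak over most of its length. The gene spans 148.6 kb (chr5:29229802-29378421), and from 29229802 to 29355357 no list held a peak, which is 125.6 kb or 84.5% of the gene. Besides the region at its start site, a single region lay inside it, at chr5:29355358-29356844. That region was weak (rank median 86.9%) and was called in 5 lists: metacarpal III, hand phalanges III, hand phalanges V, metatarsal V and foot phalanges V. Digit I lists called it in 0 of 4 cases, digit III lists in 2 and digit V lists in 3. No digit passed the threshold (exact permutation p = 0.123 for digit I and 0.284 for digit V). No source used here gives the position of the ZRS, so the region was not matched to it. The gap between neighbouring regions that spans most of Lmbr1 was 157.5 kb, and 3.7% of the 65522 gaps in the series were as long, with a median gap of 14.2 kb. Between Shh and Lmbr1, over 762.7 kb, lay 3 further regions: 1 in 9 lists at 318.4 kb from Shh, 1 in a single list at 368.3 kb, and 1 in all 12 lists at 729.0 kb, at the RING-finger gene Rnf32. A missing peak means that no peak passed the selection in that list, which need not be closed chromatin in every cell. In this bulk tissue, fewer cells with an open site and a less open site per cell cannot be told apart.

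At Gli3, open chromatin was broad and lay both inside and around the gene. Lists called 17 to 28 of its 34 regions (median 21) and covered 40.6 to 85.4 kb. Inside the 266.3 kb gene lay 15 regions, of which 6 were in all lists, and the 200 kb below and above it held 10 and 9, of which 1 and 3 were. After the start site, the strongest in all lists were chr13:15740231-15743984, 12.1 kb past the upper end (rank median 25.0%), and chr13:15756540-15760830, 28.7 kb past it (27.9%). Distances are from a region's centre to the nearer gene end. Other regions followed a limb or an element without passing the test, and these were picked after their calls were seen. A region 137.5 kb below the gene (chr13:15324985-15327439) was in all 6 foot lists and in 1 of 6 hand lists, hand phalanges I (exact permutation p = 0.0625). Another, inside the gene (chr13:15557791-15560929) was in 4 foot lists and 0 hand lists. A region 116.5 kb above (chr13:15845445-15847599) was in 6 of 6 metapodial lists and 1 of 6 phalanx lists (exact permutation p = 0.0625). By contrast, chr13:15660421-15666332, inside the gene, was in all 6 phalanx lists and in 2 metapodial lists (exact permutation p = 0.125). None of these regions passed the threshold, and the total per list differed between elements by less than the spread: 20.83 ± 3.54 in phalanges and 22.0 ± 3.41 in metapodials (SD, n = 6 lists each, exact permutation p = 0.594).

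Hand2 had the highest share of regions in all lists, 11 of 24. Lists called 14 to 20 of them (median 17) and covered 38.7 to 62.3 kb. Closely above the gene came 3 regions in all lists, at chr8:57331045-57336200, chr8:57338716-57343935 and chr8:57352461-57355052, whose rank medians were 27.0%, 27.3% and 27.1%. They lie in the 131.4 kb between Hand2 and Scrg1, which held 12 regions, 4 of them in all lists. Below the gene, 5 regions lay in the 200 kb flank, and 2 of these were in all lists. The most significant regions of the interval were at the ends of Hmgb2, a chromatin protein gene (chr8:57510285-57514362, 1.9%), and Sap30, a histone deacetylase subunit gene (chr8:57485338-57489718, 2.6%), which need not concern Hand2. At the gene itself, the best peak ranked at 25.1%, 23.5% and 21.3% in metacarpal I, hand phalanges I and foot phalanges I, and at 9.4% in metatarsal I. In the 8 lists of digits III and V it ranked at 7.0% to 14.5%. The 3 weakest ranks were thus all of digit I, the anterior digit, while metatarsal I was among the strongest. These ranks carry no test, their grouping by digit was picked after they were seen, and the lists differ in length.

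Around Grem1, most regions had their centre in the neighbouring genes. No region had its centre in the 31.9 kb between Fmn1 and Grem1 or in the 17.7 kb between Grem1 and Scg5, although the region at the Grem1 start site ran into the latter. Of the 389.1 kb of Fmn1 (formin 1, an actin-nucleating protein), only the part inside the 200 kb flank was examined. That part held 7 regions, none in all lists, and Scg5 (secretogranin V) held 7, of which 2 were, counting regions by their centre. The 4 regions in all lists were those at the start site of Grem1, at chr2:113797832-113800150 in Scg5 (rank median 41.1%), at the end of Scg5 and at the end of Arhgap11a (chr2:113846892-113849763, 5.6%). Within Fmn1, chr2:113584870-113586958 and chr2:113614944-113620817, each lay in all 6 metapodial lists and in the same 3 phalanx lists, hand phalanges I, hand phalanges III and foot phalanges III (exact permutation p = 0.25 for each). A region in Scg5, chr2:113794989-113796548, was called in metacarpal I, III and V and nowhere else, as were 78 regions in the whole series. These 3 regions were picked after their calls were seen.

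At Alx4, many regions were called in few lists. Of 30 regions, 10 were in 1 list, and lists called between 7 (metacarpal I and metatarsal V) and 17 (metacarpal III). The best ranks in all lists were at the end of Ext2 (chr2:93818817-93824585, 11.0%), a heparan sulfate synthesis gene, and at the end of Cd82, a tetraspanin gene (chr2:93459696-93464958, 16.3%). Inside the 38.9 kb gene, only the region at its lower end was called in more than 1 list. Below the gene, the 179.5 kb down to Cd82 held 11 regions, of which 2 were in all lists, both near Cd82. In that stretch the metapodial lists called 2, 4 and 2 regions in metacarpal I, III and V and 4, 2 and 2 in metatarsal I, III and V. The phalanx lists called 7, 6 and 4 in the hand and 6, 7 and 8 in the foot. The groups met at 4 regions, with means of 2.67 ± 1.03 and 6.33 ± 1.37 (SD, n = 6 lists each). The stretch was chosen after its calls were seen and was not tested. Among its regions, chr2:93567114-93569711 was in all 6 phalanx lists and in 2 metapodial lists (rank median 83.5%). Both chr2:93520317-93522673 and chr2:93591536-93595034 were in 4 phalanx lists and 0 metapodial lists (rank medians 81.9% and 92.0%). By these ranks all were weak, and none passed between elements (exact permutation p = 0.125 for each). A region in Ext2, chr2:93732387-93733759, was in the 3 foot phalanx lists and nowhere else, as were 323 regions in the whole series. It was picked after its calls were seen.

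**Figure D3:**
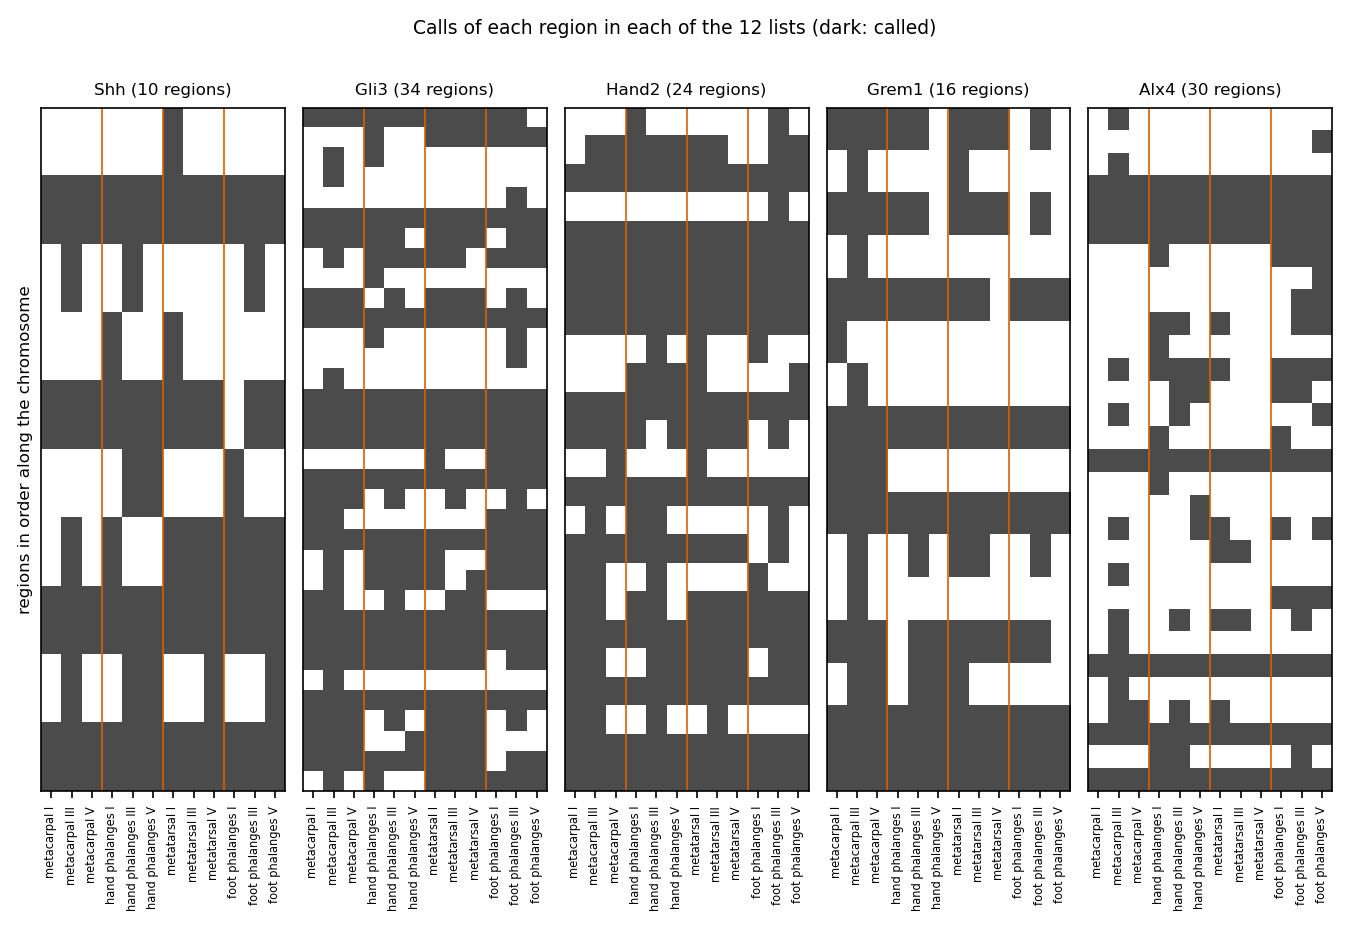
Calls of every region (rows, in order along the chromosome) in each of the 12 lists (columns; dark is called), for the 5 loci. Orange lines part metacarpals, hand phalanges, metatarsals and foot phalanges. Fully dark rows are the 35 regions in all lists. At Alx4 the rows from chr2:93520317 to chr2:93630358, below the gene, are dark mainly in the phalanx columns.

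Hand and foot were compared first, since the limbs differ in form while the 5 genes act in both. By count of called regions, 0 of 5 loci passed the threshold, a two-sided exact permutation p of at most 0.05. Among all 20711 gene windows, 1.45% were higher in the foot and 0.203% lower. The foot called 5.83 ± 0.75 and the hand 5.67 ± 1.37 regions at Shh (SD, n = 6 lists each, as throughout this comparison), 21.83 ± 3.06 and 21.0 ± 3.9 at Gli3, 16.5 ± 2.17 and 17.5 ± 1.87 at Hand2, and 12.17 ± 3.49 and 11.83 ± 3.87 at Alx4. Grem1 had the largest relative difference, 7.83 ± 2.23 in the foot and 9.83 ± 2.93 in the hand, lower in the foot in 5 of 6 pairs of the same element and digit (exact permutation p = 0.125, adjusted p = 0.949 over all genes). As a rate per 10000 called regions of the list, the Grem1 difference was -0.57 and reached the smallest p the design allows (exact permutation p = 0.0312). No share over all genes was computed for this rate, which also passed for Grem1 between elements. By kb covered, 0 of 5 loci passed, against 3.99% of windows, and of single regions 0 of 114 passed, against 0.0824% of all regions.

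Phalanges had less open chromatin than metapodials at Grem1, by covered length and before adjustment over all genes. The metacarpal I, III and V lists covered 15.9, 31.4 and 19.5 kb of the Grem1 window, and metatarsal I, III and V covered 27.2, 21.9 and 16.4 kb. Hand phalanges I, III and V covered 12.9, 18.5 and 11.6 kb, and foot phalanges I, III and V covered 9.9, 20.2 and 10.0 kb. Phalanges were lower in 6 of 6 pairs of the same limb and digit, although the ranges overlapped. Their mean was 13.86 ± 4.45 kb against 22.06 ± 6.18 kb (SD, n = 6 lists each), a difference of -8.2 kb (exact permutation p = 0.0312, adjusted p = 0.352 over all genes). Windows past this threshold made up 8.6% of all genes. The call was lost with the more significant 50% of each list (-3.47 kb, exact permutation p = 0.125) and with flanks of 500 kb (-12.13 kb, exact permutation p = 0.0938). The number of called regions ran the same way, 10, 15 and 10 in metacarpals and 11, 9 and 7 in metatarsals against 7, 10 and 7 in hand phalanges and 6, 9 and 5 in foot phalanges. It was lower in phalanges in 5 of 6 pairs and equal in 1, with means of 7.33 ± 1.86 and 10.33 ± 2.66, and missed the threshold (exact permutation p = 0.0625, adjusted p = 0.487). As a rate per 10000 called regions of the list, the difference was -0.68 (exact permutation p = 0.0312), with no share over all genes computed. At the start site of Grem1 itself the covered length was 3.4 ± 0.46 kb in phalanges and 3.44 ± 0.63 kb in metapodials, a difference within the spread. In the part of Fmn1 inside the window, the phalanx lists called 2.0 ± 1.1 regions and the metapodial lists 3.67 ± 1.37. In Scg5 they called 3.33 ± 1.21 and 4.67 ± 1.37 (SD, n = 6 lists each, for both genes). These values were not tested separately. Without metacarpal III, the longest list, the covered difference was -6.32 kb.

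**Figure D4:**
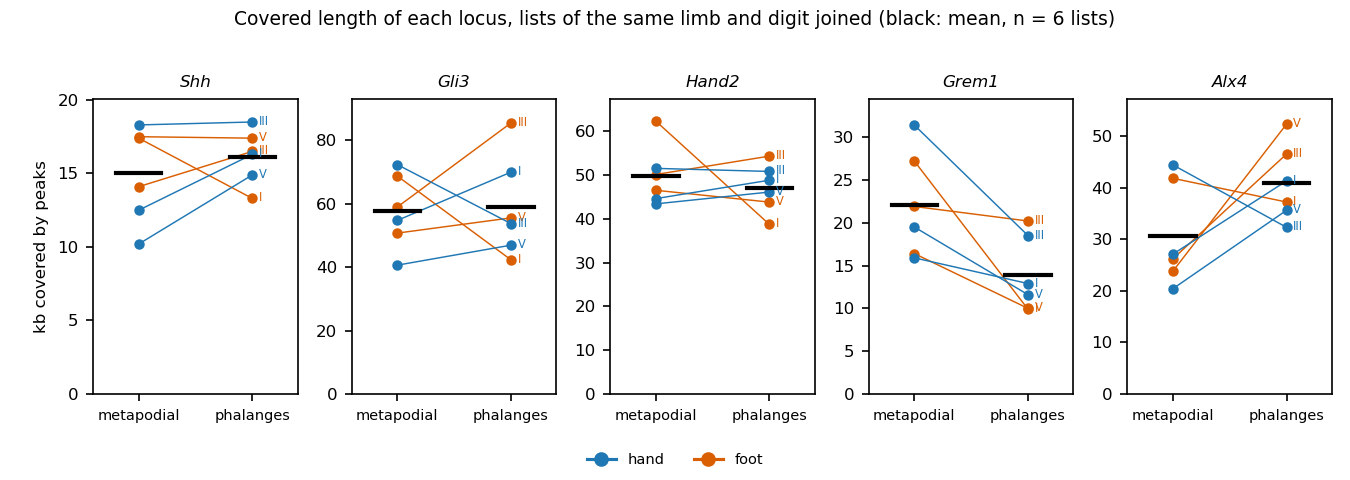
Length of each locus covered by peaks in kb (y axis) in metapodial and phalanx lists (x axis), with lists of the same limb and digit joined. Colour marks the limb, the roman numeral the digit and the black bar the mean of 6 lists. At Grem1 all 6 lines fall from metapodials to phalanges, and at Alx4 4 of 6 rise.

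Alx4 ran the other way, with wider overlap. Its called regions numbered 7, 17 and 8 in metacarpals and 13, 9 and 7 in metatarsals, against 14, 14 and 11 in hand phalanges and 13, 15 and 16 in foot phalanges (digits I, III and V). Metacarpal III stood above every phalanx list, and the other 5 metapodial lists reached 13 at most. Means were 13.83 ± 1.72 in phalanges and 10.17 ± 4.02 in metapodials (SD, n = 6 lists each). Phalanges were higher in 4 of 6 pairs, and the exact permutation test gave p = 0.188 (adjusted p = 0.664). The count at Shh (6.0 ± 0.63 in phalanges, 5.5 ± 1.38 in metapodials, exact permutation p = 0.625) and Hand2 (17.0 ± 2.37 and 17.0 ± 1.79) differed by less than the spread. In all, 0 of 5 loci passed by count, while 2.41% of gene windows were higher in phalanges and 2.41% lower. Of single regions, 0 of 114 passed, against 0.211% of all regions.

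Digits were compared 1 against the other 2, with 4 lists of a digit against 8, and these 3 comparisons share lists. In the limb bud, Hand2 and Shh act on the posterior side, that of digit V, and Alx4 and the Gli3 repressor on the anterior side, that of digit I. For digit I, 0 of 5 loci differed by count, with exact permutation p between 0.778 and 1.0, and 1.71% of gene windows were higher and 0.802% lower. By kb covered, 0 of 5 passed against 3.96% of windows, and of single regions 0 of 114 against 0.25%. Set beside digit V directly, digit I called 5.5 ± 1.29 against 5.5 ± 1.0 regions at Shh (SD, n = 4 lists each, here and next), 20.75 ± 2.22 against 19.0 ± 1.83 at Gli3 and 17.0 ± 2.16 against 15.25 ± 0.5 at Hand2. Grem1 had 8.5 ± 2.38 against 7.25 ± 2.06 and Alx4 11.75 ± 3.2 against 10.5 ± 4.04. In the 4 pairs of the same limb and element, digit I was higher in 3 and lower in 1 at Gli3 and at Hand2. At Grem1 it was higher in 2 and equal in 2, and at Alx4 higher in 2 and lower in 2. At Shh it was higher in 1, equal in 2 and lower in 1. With 4 pairs an exact test cannot go below 0.125, so no test was made.

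Digit III had higher counts than digits I and V at Grem1, before adjustment, and so did many windows across the genome. Grem1 had 15, 10, 9 and 9 called regions in metacarpal III, hand phalanges III, metatarsal III and foot phalanges III. In digit I the same elements had 10, 7, 11 and 6, and in digit V 10, 7, 7 and 5, so the groups overlapped. The mean was 10.75 ± 2.87 (SD, n = 4 lists) against 7.88 ± 2.17 (n = 8), which passed the threshold (difference 2.88, exact permutation p = 0.0247, adjusted p = 0.148 over all genes). By covered length the values were 23.03 ± 5.77 kb and 15.42 ± 5.82 kb (difference 7.61 kb, exact permutation p = 0.0247, adjusted p = 0.218). None of the other 4 loci passed by either measure. Among all gene windows, 24.9% were higher in digit III by count, 0.0% were lower, and 17.7% differed by covered length. Digit III lists were long, with 41365 to 50089 called regions, against 34178 to 44269 in the others. With all lists held to the same number of peaks the Grem1 difference was 1.12 regions (exact permutation p = 0.185). Without metacarpal III it was 1.46 regions and 4.81 kb. Gli3 had 24.5 ± 3.51 against 19.88 ± 2.1 regions (exact permutation p = 0.0617) and Hand2 18.75 ± 1.26 against 16.12 ± 1.73 (exact permutation p = 0.0741). Neither passed, nor did Shh (difference 0.75, exact permutation p = 0.444) or Alx4 (difference 2.62, exact permutation p = 0.259). Gli3 did pass in 5 alternatives, among them the more significant 50% of each list (difference 4.75, exact permutation p = 0.0123), and with lists of equal length its difference was 0.0. Hand2 passed with the more significant 50% (difference 2.12, exact permutation p = 0.0494) and with flanks of 500 kb (7.38, exact permutation p = 0.037), and had -1.0 with equal length.

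Taken singly, 4 of the 114 regions (3.51%) followed digit III, all of them higher there, against 1.24% of all regions past the threshold in either direction. In Scg5 beside Grem1, chr2:113806805-113808454 was called in all 4 digit III lists and in metatarsal I alone of the others (exact permutation p = 0.0247). The same 5 lists called chr2:93736611-93737810, in Ext2 beside Alx4 (exact permutation p = 0.0247). Inside Gli3, chr13:15601292-15604265 was in all 4 digit III lists and in metacarpal I and metacarpal V (exact permutation p = 0.037). In Rbm33, 127.5 kb below Shh, chr5:28328734-28329866 was in metacarpal III, hand phalanges III and foot phalanges III and in no other list (exact permutation p = 0.037). In the order given, the rank medians of these 4 regions were 78.5%, 87.7%, 73.9% and 83.4%, so all were weak. With lists of equal length, 0 of 114 passed.

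For digit V, the count nearest the threshold was that of Hand2. It had 15, 16, 15 and 15 regions in metacarpal V, hand phalanges V, metatarsal V and foot phalanges V, a mean of 15.25 ± 0.5 (SD, n = 4 lists) against 17.88 ± 1.89 in the other 8 (exact permutation p = 0.0741, adjusted p = 0.483). By count, 0 of 5 loci passed, while 9.53% of gene windows were lower in digit V and 0.0386% higher. The differences were -3.62 at Gli3, -2.38 at Grem1, -2.25 at Alx4 and -0.38 at Shh, with exact permutation p between 0.111 and 0.802. By kb covered, 0 of 5 passed against 6.21% of windows, and of single regions 0 of 114 against 0.32%.

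**Figure D5:**
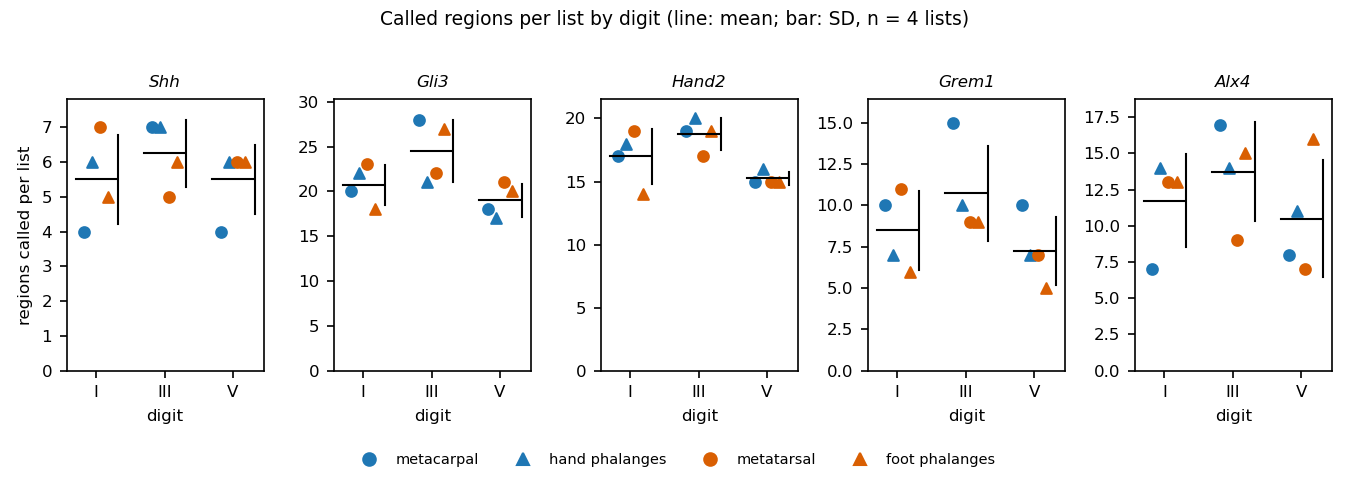
Called regions per list (y axis) for digits I, III and V (x axis) at the 5 loci. Each symbol is 1 list, colour marks the limb, shape the element, the line the mean and the bar the SD of 4 lists. Metacarpal III is the highest point at Gli3, Grem1 and Alx4, and at Hand2 the digit V lists sit between 15 and 16.

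The 41 further genes of Hedgehog signalling and axis patterning were tested by the same count in the same kind of window. Between limbs, 3 were higher in the foot (7.32%, against 1.45% of all gene windows) and 0 lower. The count was 0 with flanks of 100 kb and 5 with flanks of 500 kb, with no share of all gene windows computed for these flanks. Tbx2 (18.0 ± 3.63 against 12.5 ± 2.74 regions) and Tbx4, the hindlimb T-box gene (18.17 ± 3.19 against 12.67 ± 2.88), are neighbours and share most of their windows (exact permutation p = 0.0312 for each). Fgf10, the FGF that starts limb outgrowth, had 5.83 ± 1.47 against 4.17 ± 1.17 (exact permutation p = 0.0312). The adjusted p was 0.949 for these 3. The median difference was 0.67 regions over the 41 genes and 0.17 over all genes.

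Between elements, 5 of the 41 were higher in phalanges (12.2%, against 2.41% of all gene windows) and 0 lower, all at the smallest p of the design (exact permutation p = 0.0312, adjusted p = 0.487). The number past the threshold in either direction was 1 with the more significant 50% of each list, 2 with flanks of 100 kb and 12 with lists of equal length. No share of all gene windows was computed under these alternatives, so these counts have no background beside them. The 5 genes as reported were the FGF genes Fgf4 (13 ± 0.89 against 11.0 ± 1.55), Fgf8 (12.5 ± 1.38 against 10.67 ± 1.37) and Fgf10 (6.0 ± 1.41 against 4.0 ± 0.89), the FGF target Etv4 (20.17 ± 2.23 against 16.33 ± 1.03) and the homeobox gene Msx1 (15.83 ± 1.33 against 11.17 ± 1.83). The median difference was 0.83 regions over the list and 0.0 over all genes.

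Between digits, Sall4, a zinc-finger gene of early limb growth, was higher in digit I (13 ± 0.82 against 11.25 ± 1.16, exact permutation p = 0.037, adjusted p = 1.0), and no other of the 41 passed for digit I (2.44%, against 1.71% of all windows). With lists of equal length 7 of the 41 passed for digit I, with the more significant 50% 0, and 2 with 50% cover or flanks of 100 kb. For the alternatives given in this paragraph, no share of all windows was computed. In digit III, 6 were higher (14.63%, below the 24.9% of all windows) and 0 lower, and 3 passed with 50% cover. Among them were the Shh receptor Ptch1 (17.25 ± 1.71 against 11.88 ± 2.64, exact permutation p = 0.0123), the co-receptor Boc (24.5 ± 0.58 against 21.0 ± 1.6, exact permutation p = 0.0123) and Gli2 (27.5 ± 3.87 against 20.25 ± 3.92, exact permutation p = 0.0247). The others were Bmp2, Bmp7 and Fgf10. In digit V, 4 were lower and 0 higher: Gli2, the co-receptors Gas1 and Boc, and Pax9. That is 9.76%, near the 9.53% of all windows, and the count was 0 with lists of equal length and 10 with flanks of 500 kb. Gas1 had 16.75 ± 3.77 against 21.5 ± 2.98 regions (exact permutation p = 0.0123) and Pax9, an anterior digit gene of the bud, 8.75 ± 2.22 against 12.75 ± 1.91 (exact permutation p = 0.0123). The median difference of the list was 0.88 regions in digit III and -1.62 in digit V, against 1.12 and -1.12 over all genes. The smallest adjusted p over all genes was 0.148 in digit III and 0.483 in digit V.

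Some loci far from the 5 genes had a like pattern over the 12 lists, taken as Pearson's r of the regions called in a window as a share of all regions called in the list. The 3 most alike to Grem1 among 16369 genes were Dsg2 (r = 0.953), B4galt6 (0.952) and Ttr (0.947), all on chromosome 18. Alx4 was most alike to Epb41l2 (0.936), Tmem132d (0.909) and Mettl24 (0.894). Gli3 came with Musk (0.851), Daam1 (0.816) and Six4 (0.802), Hand2 with Rasl2-9 (0.849), Afg3l2 (0.846) and Gzma (0.844), and Shh with Myh8 (0.83), Mettl21e (0.83) and Sele (0.808). These are the highest of many values over 12 lists that share their length, so they describe the lists only.

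The lists held 36194 to 53276 peaks, and the lowest −log10 p-value kept in a list ranged from 23.0 to 49.6. Metacarpal III, the longest, held 11 of the 22 regions of the 5 loci that were in 1 list (50%), and 40.2% of such regions in the series. Markers were read as a peak within 1 kb of a gene end. Of 6 chondrocyte markers, 5 (Sox9, Col2a1, Acan, Hapln1 and Comp) had such a peak in all 12 lists and Matn1 in 9. Gene ends of other cell types were open as well: 2 of 4 osteoblast markers, 2 of 3 of tendon, 1 of 4 of endothelium, 3 of 4 of blood and 1 of 3 of nerve in all lists. The muscle genes Myf5, Myod1, Actc1 and Myog were open in 10, 8, 4 and 3 lists. The epidermal genes Trp63, Krt5 and Krt14 were open in 0 lists. An open gene end is not expression, and the part of other cells in the results was not tested.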

How the data were processed

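ATAC-seq peak lists of 12 groups were analysed, each made from the group's 3 pooled libraries and selected by irreproducible discovery rate (0.05), per the file headers and names. Tools named by the submitters' processing notes are MACS3, Picard 2.9.0 and Bowtie2 2.3.4.1, with the build mm10; trimming, filtering and read shifting are not given in the sources used here. In the deposited lists, columns give a score, a fold enrichment (linear ratio), a −log10 p-value, a −log10 q-value and the summit. Only the p-value (to rank peaks within a list), the summit and the peak position were used. Without counts, library depth is unknown, and libraries of a group could not be compared with each other. Nothing says how cultures or animals were split beyond the litter, so p-values measure the spread between lists.

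Peaks were merged at 1 bp overlap; a list called a region when any of its peaks lay in it. Windows were gene bodies ± 200 kb over 21887 protein-coding genes of RefSeq GRCm38.p6 (same coordinates as mm10), of which 20711 held a region. The gene table has no exons, so exons and introns cannot be told apart. Called regions and covered kb were compared with two-sided exact permutation tests over lists, within strata of the other 2 factors (32 splits for limb and element, smallest p 0.0312; 81 labellings for a digit, smallest p 0.0123), with Benjamini-Hochberg adjustment over all genes. The code was tested on simulated data. For the permutation test the simulated lists had equal expected length, so its behaviour with lists of unequal length was not checked. Python 3.11.15, numpy 2.4.6, pandas 2.3.3, scipy 1.17.1 and matplotlib 3.10.9 were used. Regions were named by rule: that at each gene, up to 3 in all lists with the best median rank, each past the threshold, and all in Lmbr1; genes of the further list (1 gene of it is not reported here) were named where they passed, and the 3 genes most alike by r. Any other region was picked after its calls were seen. The members, lists and contrasts were chosen with earlier results of these data known. Alternatives were peak subsets, list length, summit windows, overlap, flanks, the whole stretch from Shh to Lmbr1, rates, nearest-gene assignment, covered length and leaving out each list.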

Additional observations from a re-analysis of the deposited data

Results flagged for a closer look

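Among 35 sets of 4 or 6 lists examined (5 loci, by limb, element and digit), 4 held a list far from the others for its number of called regions. The limit used is set so that chance gives about 1 in 20 sets, for separate sets of values on a fine scale, whereas these sets share lists and hold whole numbers. At Shh, metacarpal V called 4 regions, the lowest of the digit V lists, whose other 3 called 6 each. At Hand2, hand phalanges V called 16, the highest of digit V, where the other 3 called 15, a gap of a single region. At Grem1, metacarpal III called 15, the highest of digit III, where the others called 9 or 10. At Alx4, metacarpal I called 7, the lowest of digit I, where the others called 13 or 14.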

How the results depend on the processing

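No paired analysis was possible because each list pools the 3 libraries of its group, so the replicate numbers of the labels are in no column. Regions of the 5 loci in all 12 lists numbered 35 as reported, 17 with the more significant 50% of each list, 14 when peaks had to cover 50% of a region, and 71 with flanks of 500 kb, which take in more sequence. Loci past the threshold for digit III by count (1 as reported) were 2 with the more significant 50%, 0 with lists of equal length, 2 with 500-bp windows round summits and 3 with flanks of 500 kb. Single regions past it for digit III (4 as reported) were 0 with the more significant 50% and 0 with lists of equal length. For digit V (0 as reported), 1 locus passed with summit windows and 1 locus and 1 region with 50% cover. By covered length, the element count (1 as reported) was 0 with the more significant 50% and 0 with flanks of 500 kb, and the digit III count (1) was 0 with flanks of 100 kb. Shares of all gene windows or regions were not computed under these alternatives, and the cause of these changes was not tested.

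Grem1 in digit III lost the threshold in 5 alternatives: 1.5 regions with the more significant 50% (exact permutation p = 0.198), 1.12 with equal length (p = 0.185), 2.0 with flanks of 100 kb (p = 0.0741), 0.25 per 10000 called regions (p = 0.0988) and 0.0 by the nearest gene end (p = 1.0). Leaving out 1 list at a time, its difference ran from 1.46 to 3.46 regions and from 4.81 to 9.29 kb. By covered length it lost the threshold with flanks of 100 kb (3.95 kb, exact permutation p = 0.0741). By the nearest gene end, Grem1 between elements was 0.0 (exact permutation p = 1.0), since the 1 region nearest to it was in all lists, and Alx4 was 2.83 (p = 0.0312), with no share over all genes computed. Gli3 in digit III passed in 5 alternatives: 4.75 with the more significant 50% (exact permutation p = 0.0123), 5.12 with summit windows (p = 0.0494), 4.12 and 8.12 with flanks of 100 and 500 kb (p = 0.0247 and 0.0123) and 6.12 by the nearest gene end (p = 0.0247). For Grem1 between elements, leaving out 1 list, the range was -3.67 to -2.07 regions and -9.47 to -6.32 kb, and for Alx4 3.03 to 5.03 regions. The covered ranges were chosen after seeing the data.

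Leaving out 1 list turned the sign in 8 of 27 differences, 0 of them past the threshold as reported; Alx4 in digit I, for example, ran from -1.12 to 1.21 and Gli3 between limbs from -0.2 to 2.23. Under the other alternatives the sign turned in 34 cases, all of differences that had not passed. With 50% cover: Alx4 digit I 1.25, Hand2 limb 0.17 and Shh limb -0.83. With summit windows: Alx4 limb -0.17. With flanks of 100 kb: Alx4 digit I 0.25 and Shh digit V 0.12. With flanks of 500 kb: Alx4 digit I 0.12 and Shh element -0.5. By kb covered: Alx4 digit I 1.67, Gli3 digit I 0.91, Gli3 element 1.3 and Hand2 limb 1.74. With equal length: Alx4 digit III -1.25, digit V 1.75 and limb -0.5, Gli3 digit I 0.75, Hand2 digit III -1.0, Shh digit V 0.38 and limb -0.17. With the more significant 50%: Alx4 digit I 1.25, digit III -0.25 and limb -0.17, Gli3 limb -0.33 and Shh digit I 0.25. Per 10000 called regions: Alx4 digit I 0.1, Gli3 digit I 0.09, Grem1 digit I 0.02, Hand2 digit III -0.16, Shh digit III -0.09 and digit V 0.12. By the nearest gene end: Alx4 digit I 0.62 and limb -0.5, Hand2 limb 0.5 and Shh digit I 0.12. No depth is known, so a region absent from a list may lie below that list's selection.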
